A study of Mus musculus with 6 samples.

Results

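Chemokine receptors are G protein-coupled receptors that steer leukocytes along gradients of small secreted proteins, the chemokines. A bound receptor signals through inhibitory G proteins to integrins and the cytoskeleton, and it is then silenced by receptor kinases, arrestins and regulators of G protein signalling. Each T helper lineage acquires its own set on activation, which decides the tissues that the cell can enter. The 9 receptors described here, Ccr4, Ccr6, Ccr8, Ccr9, Ccr10, Cxcr3, Cxcr4, Cxcr5 and Cxcr6, were chosen by name as receptors that T helper cells are known to use. They stand among 35896 genes with transcripts in the files. Of the 9, 7 are listed in the deposited gene-level table of 11242 entries, Ccr9 and Ccr10 were taken from summed transcript counts, and 8 passed the expression filter that kept 12925 genes. Ccr10 did not.

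The cells were naive CD4+ T cells from spleens and lymph nodes of C57BL/6 mice aged 8 to 10 weeks, cultured for 48 h under Th9 conditions. All 6 cultures received anti-CD3 at 2 µg/ml and anti-CD28 at 1 µg/ml, with TGF-β at 2.5 ng/ml, IL-4 at 20 ng/ml and a neutralizing antibody to IFN-γ at 10 µg/ml, a mixture that drives IL-9-producing helper cells. The 3 Cul5 cKO samples came from Cul5fl/fl mice with CD4-Cre, and the 3 WT samples from mice that the study's methods describe as Cul5fl/fl littermates lacking Cre. All 6 were cultured in 1 experiment. Cul5 encodes the scaffold of a ubiquitin ligase. CD4-Cre acts in the thymus in all T cells, so the deletion preceded the culture. RNA was poly-A selected and sequenced in bulk.

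Libraries held between 3944803 and 23454552 estimated counts, and WT replicate 3 was the shallow one, so 1 read weighs most there. Cul5 itself was at 64.4, 69.3 and 65.0 CPM, counts scaled to library size, in the WT samples and at 10.6, 14.2 and 13.1 CPM in the Cul5 cKO samples, which matches the labels. The T cell markers Cd3d, Cd3e, Cd3g, Cd4, Lck and Trac were present in every sample. Their sum was 1535 to 1630 CPM in WT and lower, 1418 to 1512 CPM, in Cul5 cKO. In a culture sequenced in bulk, fewer cells that express a receptor and less receptor RNA per cell cannot be told apart.

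The 2 receptors with a significant difference moved in opposite directions, and the sequences at their start sites are shown because the 2 main Ccr6 transcripts, which begin in or near different windows, were both lower in Cul5 cKO. They are 300 bases of GRCm38.p6 from RefSeq, from 250 bases before to 50 bases after an annotated start, on the plus strand. Capitals mark TTCNNNGAA, the form bound by STAT proteins, and AGGTCA or its reverse complement, the core of the sites of nuclear receptors such as the ROR family. Both strands were searched, also for the STAT6 form of the first motif, with 4 bases between its arms in place of 3, and for the AP-1 motif TGANTCA.
Ccr6, first start, chr17:8235793-8236092: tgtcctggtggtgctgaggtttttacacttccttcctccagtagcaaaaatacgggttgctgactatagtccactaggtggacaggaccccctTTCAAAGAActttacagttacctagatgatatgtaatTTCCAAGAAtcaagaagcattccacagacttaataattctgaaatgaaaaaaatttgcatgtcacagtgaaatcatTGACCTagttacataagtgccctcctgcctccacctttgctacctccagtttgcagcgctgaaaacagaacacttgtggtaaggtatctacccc
Ccr6, second start, chr17:8242276-8242575: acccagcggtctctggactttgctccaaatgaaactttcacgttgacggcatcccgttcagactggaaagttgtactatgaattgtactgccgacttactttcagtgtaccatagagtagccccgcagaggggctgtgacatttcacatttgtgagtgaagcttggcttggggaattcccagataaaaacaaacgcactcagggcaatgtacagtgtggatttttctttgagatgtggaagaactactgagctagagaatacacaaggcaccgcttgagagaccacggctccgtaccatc
Ccr8, chr9:120091883-120092182: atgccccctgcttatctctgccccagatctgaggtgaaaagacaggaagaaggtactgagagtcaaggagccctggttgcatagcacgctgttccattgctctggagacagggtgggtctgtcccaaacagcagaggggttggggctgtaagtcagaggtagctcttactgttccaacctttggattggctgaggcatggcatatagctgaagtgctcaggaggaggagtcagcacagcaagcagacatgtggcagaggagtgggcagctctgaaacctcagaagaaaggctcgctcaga
The first Ccr6 window held TTCAAAGAA at -157, TTCCAAGAA at -120 and TGACCT at -44, counted from the start with -1 as the base before it, and these matches do not overlap. The start used for the first Ccr6 window, position 8236043, is that of Ccr6-207, which held 2.11% to 4.77% of the Ccr6 counts of a sample. Ccr6-202 starts further downstream, at 8236212, so the matches lie further from its start than these positions. The second Ccr6 window and the Ccr8 window held none of the 4 motifs in these letters. Among 32851 promoters of this length, TTCNNNGAA stood in 8.30%, its STAT6 form in 6.95%, TGANTCA in 7.81% and AGGTCA in 16.3%. Promoter sequences were found for 7 of the 9 receptors, in 8 windows. Outside Ccr6 the one match was TGAGTCA at -143 in Ccr4 (chr9:114496495-114496794, minus strand).

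The chemokine receptor mRNA of day 2 Th9 cells was mostly Ccr8, Ccr4 and, among receptors outside the 9, Ccr7, which together made up 95.1% to 96.4% of the summed level of 18 typical receptors in WT and 97.0% to 97.6% in Cul5 cKO. Compared per length, in TPM (transcript abundance scaled to length and depth), the WT means ran from Ccr8 at 409 TPM over Ccr4 at 158 TPM and Ccr6 at 18.7 TPM to Cxcr4 at 7.46 TPM. Cxcr3 (2.70 TPM), Cxcr5 (1.47 TPM), Cxcr6 (1.19 TPM), Ccr9 (0.838 TPM) and Ccr10 (0.0127 TPM) followed. Of these WT neighbours, Cxcr4 and Cxcr3, Cxcr3 and Cxcr5, and Cxcr5 and Cxcr6 overlapped in their sample ranges. In Cul5 cKO the order was Ccr8 (611 TPM), Ccr4 (155 TPM), Ccr6 (8.23 TPM), Cxcr4 (4.39 TPM), Cxcr5 (1.91 TPM), Cxcr3 (1.16 TPM), Cxcr6 (0.853 TPM) and Ccr9 (0.421 TPM), with Ccr10 listed at 0. There every neighbouring pair from Ccr6 down to Ccr9 overlapped, Ccr6 with Cxcr4 among them.

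**Figure D1:**
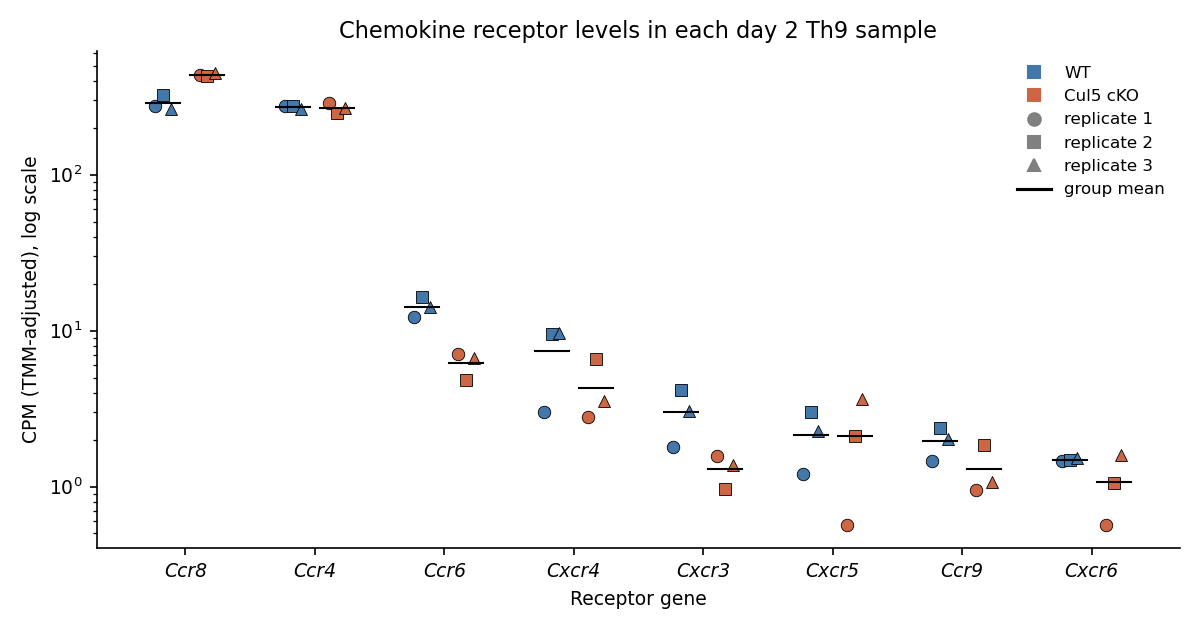
Level of 8 chemokine receptors in each sample, in TMM-adjusted CPM on a log axis; colour gives the genotype, the point's shape the replicate, and the line the mean of 3 samples. Ccr8 lies higher in all 3 Cul5 cKO samples than in any WT sample, Ccr6 and Cxcr3 lie lower, and the other 5 receptors overlap between genotypes; Ccr10 is not drawn.

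Between genotypes, 2 of the 8 tested receptors were called at an adjusted p under 0.05 in edgeR's quasi-likelihood test, Ccr8 higher and Ccr6 lower in Cul5 cKO. Over all 12925 genes, 133 were called, or 1.03%, of which 79 (0.611%) were higher and 54 (0.418%) lower in Cul5 cKO. For 3 of the 8 receptors the samples of the genotypes did not overlap, where 27.5% of all genes showed no overlap. An unadjusted p under 0.05 was reached by the same 3 receptors, Ccr6, Ccr8 and Cxcr3, and by 21.3% of all genes. The fitted direction was higher in 1 of the 8 and lower in 7, with a median log2 fold change of -0.52 against -0.01 over all genes.

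Ccr8, the receptor for CCL1 found on Th2 cells, skin-homing T cells and activated regulatory T cells (ENSMUSG00000042262, chr9:120092114-120094906, plus strand), was the most abundant receptor and rose in Cul5 cKO. Its level was 276, 326 and 262 CPM in WT replicates 1, 2 and 3 and 438, 428 and 446 CPM in Cul5 cKO replicates 1, 2 and 3. Every Cul5 cKO sample was above every WT sample, and the Cul5 cKO samples lay closer together than the WT samples. The means were 288 ± 33.5 CPM (SD, n = 3) in WT and 437 ± 8.68 CPM in Cul5 cKO, a log2 fold change of 0.60 (SE 0.0866, 95% interval 0.40 to 0.80, adjusted p = 0.0298), or 1.52-fold. These means rest on 1037 to 7535 counts a sample in WT and 9778 to 10088 in Cul5 cKO. The exact permutation test, two-sided, gave p = 0.1, the smallest that 3 samples against 3 allow.

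The call for Ccr8 did not hold under every setting, although its direction and an unadjusted p under 0.05 held in all 18 alternatives. It was lost when WT replicate 2 (log2 fold change 0.70, adjusted p = 0.0643) or WT replicate 3 (0.54, adjusted p = 0.126) was left out. The same held without Cul5 cKO replicate 1 (0.60, adjusted p = 0.0587), replicate 2 (0.62, adjusted p = 0.0916) or replicate 3 (0.59, adjusted p = 0.153). It was also lost with scaled counts or limma on log values. Over all genes, the fits that left out these samples called 2, 2, 123, 45 and 3 genes in that order, against 133 with all 6 samples.

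Ccr6, the receptor for CCL20 that marks Th17 cells and is also found on B cells and regulatory T cells (ENSMUSG00000040899, chr17:8236043-8257141, plus strand), fell in Cul5 cKO. It was at 12.1, 16.3 and 14.2 CPM in WT replicates 1, 2 and 3 and at 7.04, 4.82 and 6.62 CPM in Cul5 cKO replicates 1, 2 and 3. The lowest WT sample was above the highest Cul5 cKO sample. Means were 14.2 ± 2.09 CPM for WT and 6.16 ± 1.18 CPM for Cul5 cKO (SD, n = 3). The log2 fold change was -1.20 (SE 0.190, 95% interval -1.65 to -0.76, adjusted p = 0.0390), so that WT was 2.30-fold higher, and the exact permutation test gave p = 0.1. Counts behind these values were 284, 377 and 56 in WT and 162, 110 and 149 in Cul5 cKO, so WT replicate 3 is the least precise.

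The call for Ccr6 was also lost on leaving out WT replicate 2 (log2 fold change -1.08, adjusted p = 0.168), WT replicate 3 (-1.21, adjusted p = 0.165), Cul5 cKO replicate 1 (-1.31, adjusted p = 0.0537), Cul5 cKO replicate 2 (-1.05, adjusted p = 0.0924) or Cul5 cKO replicate 3 (-1.26, adjusted p = 0.160), and with the libraries thinned to the depth of WT replicate 3, with scaled counts or with limma on log values. Without WT replicate 1 both receptors stayed called, Ccr6 at an adjusted p of 0.0405 and Ccr8 at 0.0475. Over all genes, that fit called 316, against 2 to 123 in the fits that left out another sample.

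**Figure D2:**
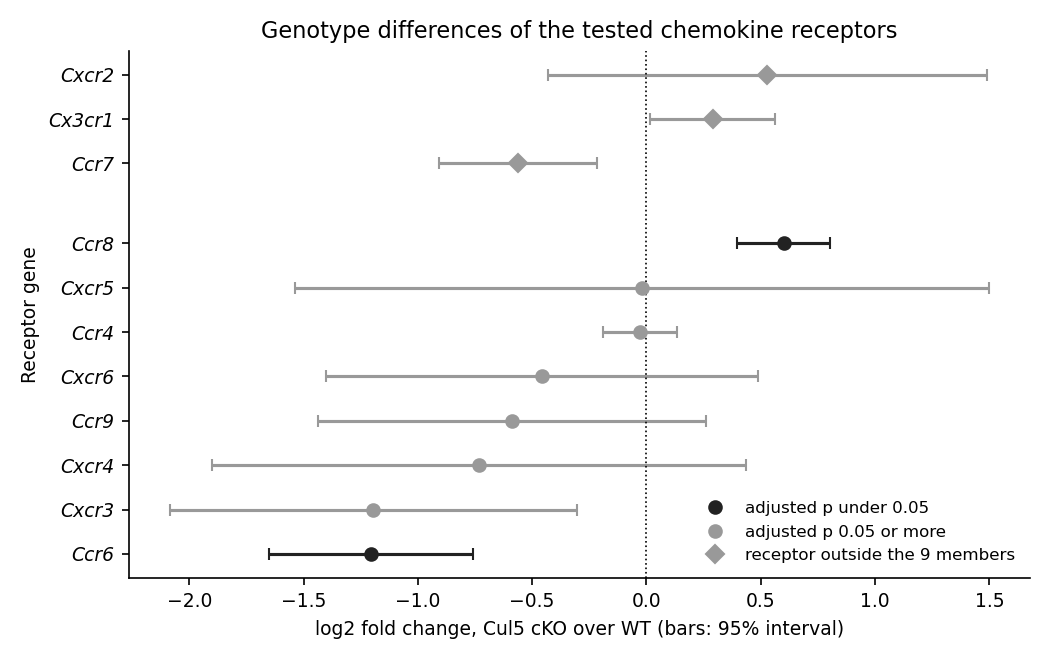
Log2 fold change of Cul5 cKO over WT for the 8 tested receptors (circles) and for 3 other typical chemokine receptors with a mean of at least 1 CPM (diamonds), with 95% intervals from edgeR's quasi-likelihood fit; black marks an adjusted p under 0.05. Ccr8 at 0.60 and Ccr6 at -1.20 are the black points. The intervals of Ccr4, Cxcr5, Cxcr4, Cxcr6 and Ccr9 span 0, as does that of Cxcr2 among the diamonds.

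The 2 Ccr6 transcripts with the most counts were both lower in Cul5 cKO. Ccr6-202, which starts at position 8236212, just downstream of the first promoter window, was at 5.92, 8.97 and 6.96 CPM in WT and at 3.36, 3.37 and 4.22 CPM in Cul5 cKO. Ccr6-201, which starts at 8242526 in the second window, was at 5.17, 4.76 and 4.07 CPM in WT and at 2.82, 1.27 and 2.09 CPM in Cul5 cKO. For each transcript, all WT samples were above all Cul5 cKO samples. The Cul5 cKO mean was 0.501 of the WT mean for Ccr6-202 and 0.442 for Ccr6-201. Together they took 77.8% to 96.2% of the Ccr6 counts of a sample, and the rest fell on other annotated transcripts, some of which start further downstream. They share 1250 runs of 31 bases, 72.5% of those of Ccr6-201 and 91.4% of those of Ccr6-202, so the split between them is an estimate and no test was made on it.

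B cells, which also express Ccr6, were followed through 7 marker genes, all detected. Their sum was 20.3, 16.4 and 19.2 CPM in WT and 6.86, 10.9 and 54.2 CPM in Cul5 cKO, and all 7 were highest in Cul5 cKO replicate 3. In that sample Ccr6 was at 6.62 CPM, below every WT sample. In Cul5 cKO replicates 1 and 2 the B cell sum and Ccr6 were both below the WT samples, and the part of B cell RNA in the Ccr6 difference was not tested. Of the 6 T cell markers, 4 were lower in every Cul5 cKO sample than in any WT sample, where 27.5% of all genes showed no overlap, none was called by edgeR, and 2 had an unadjusted p under 0.05.

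**Figure D3:**
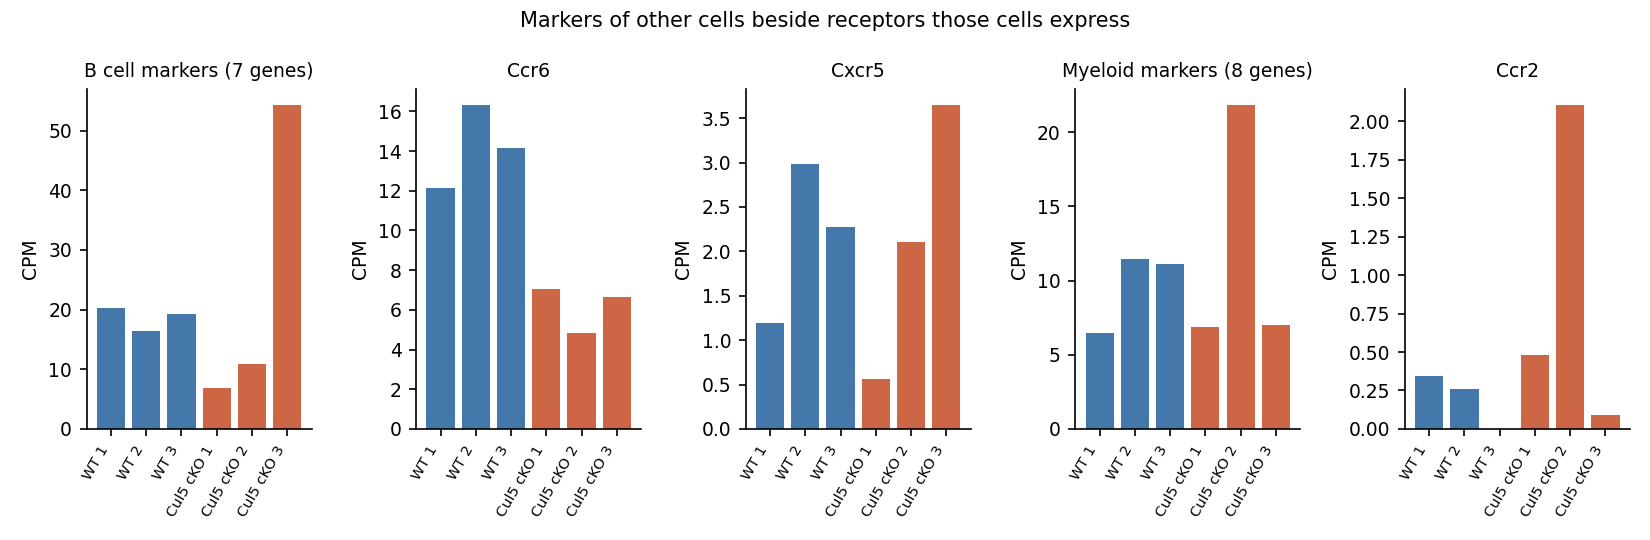
Summed level of 7 B cell markers and of 8 myeloid markers beside Ccr6, Cxcr5 and Ccr2, in CPM per sample (bars start at 0; blue WT, orange Cul5 cKO; each panel has its own scale). The B cell sum is highest in Cul5 cKO replicate 3, where Cxcr5 is also highest and Ccr6 is not, and the myeloid sum is highest in Cul5 cKO replicate 2, as is Ccr2.

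Ccr4, the receptor for CCL17 and CCL22 on Th2 and skin-homing T cells (ENSMUSG00000047898, chr9:114490316-114504916, minus strand), was the second of the 9 in TPM in both genotypes, and no difference between them was detected. It was at 276, 277 and 265 CPM in WT and at 289, 250 and 266 CPM in Cul5 cKO. The Cul5 cKO samples lay on both sides of the WT samples. Means of 273 ± 6.84 CPM and 268 ± 19.6 CPM (SD, n = 3) gave a log2 fold change of -0.03 with a 95% interval of -0.19 to 0.14 (SE 0.0693, edgeR adjusted p = 0.864). The interval lies below the log2 fold change of 0.60 fitted for Ccr8.

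Ccr8 made up a larger share of the receptor pool in Cul5 cKO. As a percentage of the summed TPM of 18 typical chemokine receptors, Ccr8 was 49.8, 46.6 and 43.4% in WT and 61.8, 62.1 and 64.0% in Cul5 cKO. Ccr4 made up 19.9, 16.5 and 18.0% in WT and 16.8, 15.1 and 15.7% in Cul5 cKO, with overlap. Ccr6 made up 1.86, 2.48 and 1.94% in WT and 1.01, 0.633 and 0.886% in Cul5 cKO. Ccr7 made up 26.7, 31.9 and 33.9% in WT and 19.0, 19.8 and 17.5% in Cul5 cKO, without overlap. Shares sum to a fixed total, so these differences are not independent of each other. The sum itself was 880 ± 131 TPM in WT and 975 ± 26.2 TPM in Cul5 cKO (SD, n = 3).

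Ratios between receptors within a sample do not depend on library scaling. Ccr8 exceeded Ccr6 in TPM by 26.7-, 18.8- and 22.4-fold in the WT samples and by 61.3-, 98.2- and 72.3-fold in the Cul5 cKO samples. The ratio of Ccr8 to Ccr4 in TPM was 2.41 to 2.82 in WT and 3.69 to 4.11 in Cul5 cKO. Both ratios were higher in every Cul5 cKO sample than in any WT sample. For Ccr8 over Ccr6 this follows from the levels of these receptors, neither of which overlapped between genotypes, so it adds no separate evidence.

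**Figure D4:**
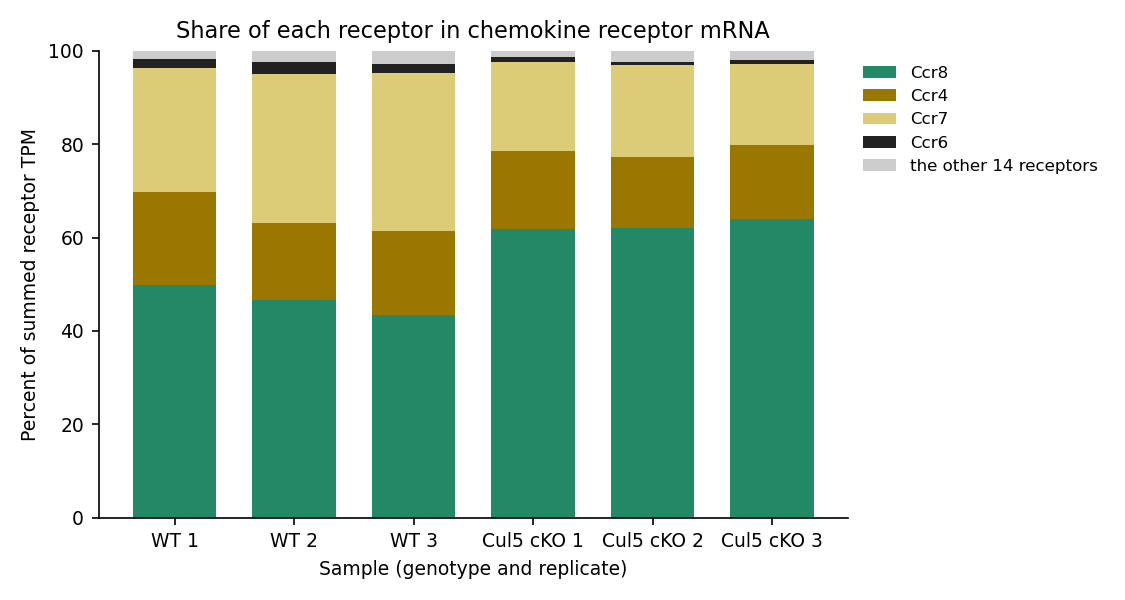
Share of Ccr8, Ccr4, Ccr7, Ccr6 and the other 14 typical chemokine receptors in their summed TPM, in percent, for each of the 6 samples. The Ccr8 share is 43.4 to 49.8% in WT and 61.8 to 64.0% in Cul5 cKO.

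Cxcr3 and Cxcr6, receptors of type 1 cells for CXCL9 to CXCL11 and for CXCL16, were low in these cultures. Every culture received the antibody to IFN-γ, so its part in these levels was not tested. Cxcr3 (ENSMUSG00000050232, chrX:101731535-101734269, minus strand) was at 1.79, 4.15 and 3.04 CPM in WT and at 1.56, 0.964 and 1.38 CPM in Cul5 cKO. The samples did not overlap, but WT replicate 1 was close to Cul5 cKO replicate 1. Means were 2.99 ± 1.18 CPM and 1.30 ± 0.307 CPM (SD, n = 3). The log2 fold change of -1.19 had a 95% interval of -2.08 to -0.30 and did not pass the adjustment (SE 0.381, edgeR p = 0.0153, adjusted p = 0.147, exact permutation p = 0.1). With replicates 2 and 3 alone it was -1.66 at an adjusted p of 0.0443, in a setting that called 8.83% of all genes.

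Cxcr6 (ENSMUSG00000048521, chr9:123806475-123811760, plus strand), within Fyco1 on the opposite strand, was at 1.45, 1.47 and 1.52 CPM in WT and at 0.565, 1.05 and 1.60 CPM in Cul5 cKO. The WT samples were close together, and the Cul5 cKO samples ranged from below to above them. Its log2 fold change was -0.46 (SE 0.404, 95% interval -1.40 to 0.49, edgeR adjusted p = 0.553). These levels rest on 6 to 36 counts a sample.

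The estimated counts of Cxcr6 fell on different transcripts in different samples. In WT replicate 1 and Cul5 cKO replicate 1 all counts, 34 and 13, were assigned to Cxcr6-202. In the other 4 samples nearly all were assigned to Cxcr6-201. The transcripts share 1814 runs of 31 bases, 97.2% of those of Cxcr6-201 and 96.6% of those of Cxcr6-202. The deposited gene-level table lists Cxcr6 at -3.21 log2 CPM in those same samples, the lowest value of the whole table, and at 0.77, 0.76, 0.31 and 0.87 log2 CPM in the others. The table minus the summed counts gave -3.76 to 0.21 for Cxcr6 on the log2 scale, and 0.08 to 0.12 for Ccr8.

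**Figure D5:**
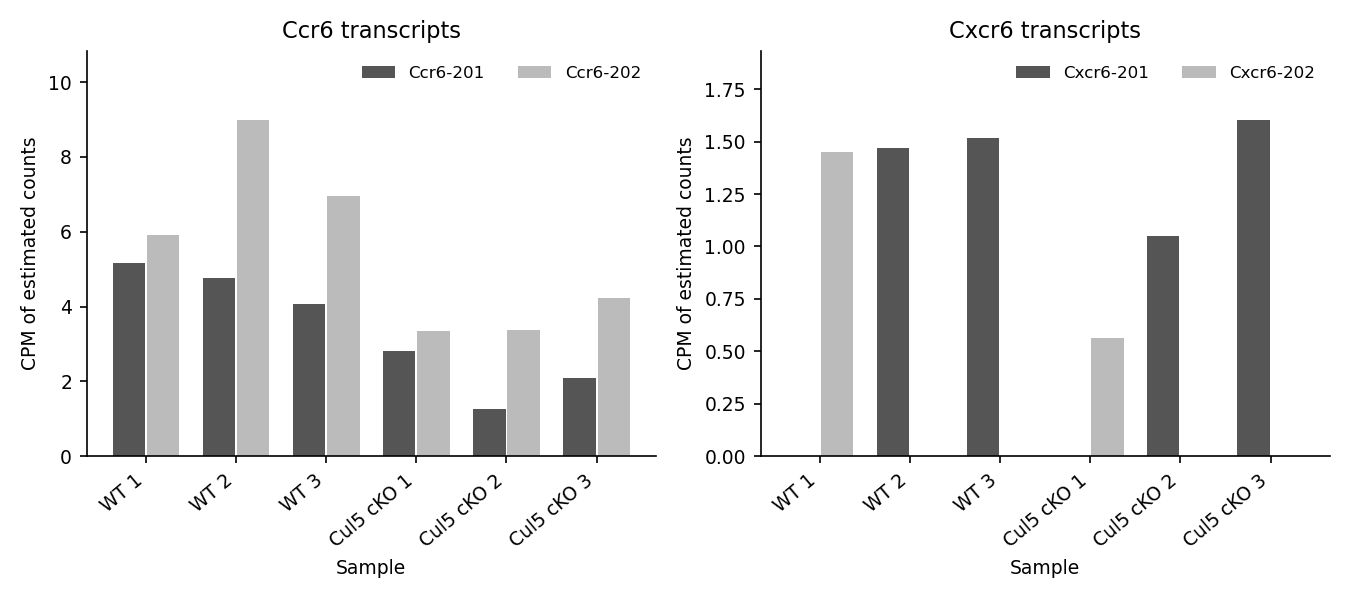
Estimated counts of the main Ccr6 and of both Cxcr6 transcripts, in CPM, for each sample; bars start at 0. Both Ccr6 transcripts are lower in all Cul5 cKO samples, and the Cxcr6 counts stand under Cxcr6-202 in replicate 1 of each genotype and under Cxcr6-201 in the other 4 samples.

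Ccr9 and Ccr10 guide T cells to the small intestine and to skin and mucosa, in response to CCL25 and to CCL27 and CCL28. Ccr9 (ENSMUSG00000029530, chr9:123678439-123784330, plus strand) was at 1.45, 2.38 and 2.02 CPM in WT and at 0.955, 1.84 and 1.07 CPM in Cul5 cKO, with overlap between the genotypes. The log2 fold change was -0.59 (SE 0.363, 95% interval -1.44 to 0.26, edgeR adjusted p = 0.395). Its value is uncertain, because 2 RNAs that were not among the quantified transcripts share exact sequence with it. These are AC165425.1, annotated on the opposite strand, over 1878 bases and Gm17200, on the same strand, over 269 bases. In addition, 12.6% to 61.9% of the Ccr9 counts of a sample were assigned to Ccr9-206, annotated as a retained intron and not as protein-coding. Ccr10 (ENSMUSG00000044052, chr11:101172997-101175443, minus strand) had 1 count in WT replicate 1 and 0 counts in the other 5 samples. Under a floor of 3 counts this allows up to 0.759 CPM in WT replicate 3 and up to 0.133 CPM in the other samples, for counting error only. Ccr10 was therefore not detectable at this depth.

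Cxcr4 and Cxcr5 direct cells to CXCL12 in marrow and lymphoid stroma and to CXCL13 in B cell follicles, and for neither was a difference detected. Cxcr4 (ENSMUSG00000045382, chr1:128588199-128592293, minus strand) was at 2.99, 9.47 and 9.62 CPM in WT and at 2.78, 6.53 and 3.56 CPM in Cul5 cKO. Replicate 1 was the lowest sample in both genotypes, and the genotypes overlapped. The log2 fold change was -0.73 (95% interval -1.90 to 0.44, edgeR adjusted p = 0.441).

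Cxcr5 (ENSMUSG00000047880, chr9:44511787-44561877, minus strand) was at 1.20, 2.99 and 2.28 CPM in WT and at 0.565, 2.10 and 3.65 CPM in Cul5 cKO. The lowest and the highest sample were both Cul5 cKO. Its log2 fold change of -0.02 had a 95% interval of -1.54 to 1.50 (SE 0.649, edgeR adjusted p = 0.992), and its sign was reversed in 7 of the 16 alternatives that gave a value. Cxcr5 was highest in the sample with the highest B cell marker sum, 54.2 CPM, and lowest in the one with the lowest, 6.86 CPM. Between these extremes the order differed. The sum was 20.3 CPM in WT replicate 1, where Cxcr5 was at 1.20 CPM, and 19.2 CPM in WT replicate 3, with Cxcr5 at 2.28 CPM. It was 16.4 CPM in WT replicate 2 and 10.9 CPM in Cul5 cKO replicate 2, where Cxcr5 was at 2.99 and 2.10 CPM. B cells carry this receptor, and their part in its level was not tested.

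The other 9 typical chemokine receptors were read in the same fit. Of these, 4 passed the filter and none was called. An unadjusted p under 0.05 was reached by 2 of the 4, Ccr7 and Cx3cr1, and by 21.3% of all genes. The same 2 did not overlap between genotypes, where 27.5% of all genes showed no overlap. DESeq2 called 1, Ccr7, and 5.36% of all genes. Ccr7, which holds naive and central memory cells in lymph nodes, was at 271, 409 and 382 CPM in WT and at 246, 250 and 222 CPM in Cul5 cKO (log2 fold change -0.56, SE 0.148, edgeR adjusted p = 0.111). All 3 Cul5 cKO samples were below WT. The fractalkine receptor Cx3cr1 averaged 12.4 ± 1.10 CPM in WT and 15.1 ± 1.04 in Cul5 cKO (SD, n = 3; log2 fold change 0.29, edgeR adjusted p = 0.218). Cxcr2, a receptor of neutrophils, averaged 1.07 CPM in WT against 1.39 in Cul5 cKO, with overlap (log2 fold change 0.53, adjusted p = 0.498).

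Ccr2, the receptor of monocytes for CCL2, did not pass the filter and was chosen for mention after its values were seen. It had 8, 6 and 0 counts in WT and 11, 48 and 2 in Cul5 cKO, and Cul5 cKO replicate 2 also had the highest sum of the 8 myeloid markers, 21.8 CPM against 6.49 to 11.5 CPM in WT and 6.86 and 7.02 CPM in the other Cul5 cKO samples. Of the 8 markers, 6 were highest in that sample and the rest were not. Csf1r, which defines macrophages and monocytes, was among the 6, at 2.63 CPM there and at 0 to 0.173 CPM elsewhere. Between genotypes 5 of the markers were tested, of which 4 were higher and 1 lower in Cul5 cKO, and none was called. None of the 5 atypical, scavenging receptors passed the filter.

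Of 14 genes for ligands of the 9 receptors, 12 had counts and 7 were tested, of which 5 were higher and 2 lower in Cul5 cKO. None was called by edgeR or DESeq2, and the unadjusted p was under 0.05 for 0, against 21.3% of all genes. Ccl22, a ligand of Ccr4, was at 3.20, 6.97 and 6.83 CPM in WT and at 1.09, 8.94 and 24.5 CPM in Cul5 cKO, and Cul5 cKO held both the lowest and the highest sample (log2 fold change 1.07, edgeR adjusted p = 0.533). Ccl17, the other Ccr4 ligand, had a log2 fold change of 1.65 (adjusted p = 0.240) and was highest in Cul5 cKO replicate 2, the sample with the most myeloid markers. Ccl1, the ligand of Ccr8, was at 0.0427, 5.49 and 2.53 CPM in WT and at 0.0434, 6.53 and 3.73 CPM in Cul5 cKO. It was nearly absent from replicate 1 of both genotypes, and the genotypes overlapped (log2 fold change 0.34, adjusted p = 0.918). Ccl20, the ligand of Ccr6, averaged 0.173 CPM in WT against 0.529 in Cul5 cKO (adjusted p = 0.472). The Ccr9 ligand Ccl25 was at 6.32 and 6.17 CPM, and the Ccr10 ligand Ccl27a at 0.927 and 0.731 CPM, with adjusted p = 0.867 and 0.498.

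The genes that carry the signal from these receptors were all expressed. Of 15 that transmit it, from G protein subunits to integrin activators, 10 were higher and 5 lower. None was called by edgeR, and 4 had an unadjusted p under 0.05 (3 higher, 1 lower), against 21.3% of all genes. DESeq2 called 2, Pik3r5 and Rap1b, against 5.36% of all genes. The genotypes did not overlap for 6 (4 higher, 2 lower), against 27.5% of all genes. Pik3r5, the adaptor of the PI3K isoform coupled to G proteins, was at 29.4, 43.5 and 43.8 CPM in WT and at 23.9, 25.1 and 22.2 CPM in Cul5 cKO (log2 fold change -0.70, edgeR adjusted p = 0.0907). The integrin activators Rap1b and Fermt3 and the Rac activator Elmo1 had log2 fold changes of 0.27, 0.19 and 0.23 with adjusted p = 0.109, 0.122 and 0.172.

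Of 14 genes that end the signal, 12 were tested, 7 higher and 5 lower. None was called by edgeR, 2 had an unadjusted p under 0.05, both lower, against 21.3% of all genes, and DESeq2 called 1, Rgs10, against 5.36%. Rgs10, which speeds the shut-off of inhibitory G proteins, was at 56.1, 61.8 and 66.3 CPM in WT and at 39.7, 48.3 and 42.8 CPM in Cul5 cKO (log2 fold change -0.49, edgeR adjusted p = 0.0701). Values for the arrestin Arrb1 (-0.46, adjusted p = 0.153), for Rgs19 (0.15, adjusted p = 0.257) and for the receptor kinase Grk2 (0.07, adjusted p = 0.521) are log2 fold changes from the same fit.

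Of 8 other homing receptors, 6 were tested and all 6 had negative log2 fold changes, where 6615 of 12925 genes did. The median was -0.34 against -0.01 over all genes. None was called by edgeR, 2 had an unadjusted p under 0.05, against 21.3% of all genes, and DESeq2 called the same 2, Selplg and S1pr4, against 5.36%. Selplg, the selectin ligand PSGL-1, averaged 348 ± 12.5 CPM in WT against 274 ± 24.6 in Cul5 cKO (SD, n = 3; edgeR adjusted p = 0.0897), and the sphingosine phosphate receptor S1pr4 at 50.4 ± 6.76 and 34.5 ± 4.01 CPM (adjusted p = 0.0907). Neither of these 2 overlapped between genotypes, where 27.5% of all genes showed no overlap. S1pr1, which lets T cells leave lymph nodes, and the hyaluronan receptor Cd44 overlapped, with log2 fold changes of -0.33 and -0.28 (adjusted p = 0.429 and 0.570).

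Among 12 transcription factors known to set receptor or lineage identity in T helper cells, 6 were higher and 6 lower. Of these, edgeR called 1, Maf, against 1.03% of all genes, and DESeq2 called 2, Maf and Runx3, against 5.36%. An unadjusted p under 0.05 was reached by 2 higher and 3 lower genes in edgeR, against 21.3% of all genes. The genotypes did not overlap for 4, against 27.5% of all genes. Maf, a factor of Th2, Th17 and follicular helper cells, rose from 25.3, 34.4 and 35.4 CPM in WT to 61.9, 66.5 and 69.4 CPM in Cul5 cKO (log2 fold change 1.07, SE 0.131, edgeR adjusted p = 0.0185). Without WT replicate 2, WT replicate 3, Cul5 cKO replicate 2 or Cul5 cKO replicate 3, no gene of the 7 lists was called. Over all genes these fits called 2, 2, 45 and 3. Runx3, a factor of Th1 and cytotoxic T cells, averaged 46.7 ± 2.64 CPM in WT against 62.7 ± 4.96 in Cul5 cKO without overlap (SD, n = 3; adjusted p = 0.0687). Klf2, which maintains recirculation genes such as S1pr1 in quiescent T cells, was at 40.1, 93.8 and 109 CPM in WT and at 21.2, 47.5 and 27.7 CPM in Cul5 cKO, with overlap (log2 fold change -1.31, adjusted p = 0.147). Foxo1, which keeps up Klf2 and homing receptors in quiescent T cells, was at 340 and 304 CPM (log2 fold change -0.16, adjusted p = 0.230).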

How the data were processed

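Poly-A RNA of 3 WT and 3 Cul5 cKO day 2 Th9 cultures had been sequenced as single-end reads of 50 bases. The authors assigned reads to GRCm38 transcripts with kallisto 0.46.2 and deposited estimated counts and TPM for 119414 transcripts per sample, and a gene-level table of log2 CPM, TMM-normalized with edgeR 3.34.0. The log2 fold change and p-value columns that the authors deposited in that table were not used. Whether counting used strand, and whether the replicates came from separate mice, is not given in the sources used here, so p-values measure the spread between these samples.

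Transcripts were summed to genes with GENCODE vM21 (116640 matched, and the unmatched ones held 0.958% to 1.04% of counts), and the sums were rounded. In R 4.3.3, edgeR 4.0.16 with filterByExpr defaults, TMM factors and the quasi-likelihood test was fitted over 12925 genes, with Benjamini-Hochberg adjustment and calls at 0.05. Fold changes are log2 of Cul5 cKO over WT. CPM uses TMM-adjusted library sizes. Totals of 3944803 to 23454552 counts a sample limit precision, and a floor of 3 counts equals 0.128 to 0.759 CPM. Intervals and floors cover counting or replicate error only. Exact permutation tests over samples were two-sided, with 0.1 the smallest p. The scripts were tested on simulated data. Alternatives used DESeq2 1.42.0 and limma 3.58.1, and blastn 2.17.0 searched for near-identical copies.

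The 9 receptors, the 7 lists of related genes and the tests were chosen with earlier results of these data known. Named genes are the 9 receptors, Cul5, list genes with an adjusted p under 0.05, the 4 tested genes of each list with the smallest p, other receptors and ligands averaging 1 CPM or more, and the 3 genes most like Ccr6 and Ccr8 over samples. A few genes that this rule names are not reported here. Same-numbered samples deviated together with correlations of 0.37, 0.21 and 0.02, and replicate numbers were not taken as pairs in the main fit. Replicate 1 of each genotype correlated at -0.33 to -0.09 with replicates 2 and 3 of the other genotype. This shared deviation of replicate 1 has no term in the main fit, and fits with such a term are among the alternatives.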

Additional observations from a re-analysis of the deposited data

How the results depend on the processing

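Across 18 alternatives, Ccr6 kept its direction and an unadjusted p under 0.05 in 18, at log2 fold changes of -1.43 to -1.05 and adjusted p of 3.47e-05 to 0.175, and so did Ccr8, at 0.54 to 0.70 and 3.81e-07 to 0.153. Their calls were lost with counts scaled from TPM (Ccr6 -1.14, Ccr8 0.62), with limma on log2(TPM + 1) (-1.08 and 0.59), on log2(TPM + 0.1) (-1.16 and 0.59) and on the gene-level table (-1.15 and 0.61), so that 0 receptors were called in each of these, where the unadjusted p of both stayed under 0.05. With libraries thinned to WT replicate 3, Ccr8 alone was called (1 receptor) and Ccr6 was not (-1.07, adjusted p = 0.0613). Leaving out 1 sample at a time gave 0 to 2 called receptors, Ccr6 at -1.32 to -1.05 and Ccr8 at 0.54 to 0.70. Over the 7 lists 1 of 56 tested genes was called, where 133 of 12925 were called over all genes. DESeq2 called 8 of 56 (693 of 12925 over all genes). The replicate block called 10 of 56 (848 of 12925), and replicate 1 against the others as a term called 15 of 56 (1688 of 12925). Replicates 2 and 3 alone gave 10 of 57 (1153 of 13055). Klf2 and Runx3 were among those called with the block, with the term and in replicates 2 and 3 alone. Thinned libraries gave 3 of 49 (130 of 10463). Limma called 0 of 56 on log2(TPM + 1) (27 of 12925) and 0 of 56 on log2(TPM + 0.1) (30 of 12925). Leaving a sample out gave 0 to 3 (2 to 316 over all genes). Over all genes 133 calls became 693 with DESeq2, 61 with scaled counts, 27 with log2(TPM + 1), 228 without a filter, 1153 in replicates 2 and 3 alone, 1688 with the replicate 1 term, and 2 to 316 with a sample left out. Signs turned for Ccr4 with scaled counts (0.016) and a sample left out (-0.079 to 0.028), and for Cxcr5 with scaled counts (0.42), log2(TPM + 1) (0.20), log2(TPM + 0.1) (0.30), replicates 2 and 3 alone (0.076) and a sample left out (-0.67 to 0.43). The cause was not tested in any of these. With the replicate number as a block, 2 receptors were called, Ccr6 at -1.22 (adjusted p = 0.0211) and Ccr8 at 0.61 (adjusted p = 0.0130), and 848 genes in all. Cul5 cKO replicate 3 correlated better with WT replicate 2 (0.20) than with WT replicate 3 (0.02), so not every sample matched its own number. Depth limits Ccr9, Cxcr3, Cxcr5 and Cxcr6, which had 6 to 12 counts in WT replicate 3, and none of these 4 was tested in thinned libraries.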

Other observations

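Genes were ranked by how closely their values followed those of Ccr6 or Ccr8 over the 6 samples, as the root mean square difference of centred log2(CPM + 0.5), among 11615 tested genes with a mean of at least 1 CPM. Among the 3 closest to Ccr6 were Fbxo2 (difference 0.190, log2 fold change -1.47, edgeR adjusted p = 0.0838) and Ceacam-ps1 (0.190, -1.30, adjusted p = 0.0801). Closest to Ccr8 were Tnip2, which binds the NF-κB inhibitor A20 (0.0414, log2 fold change 0.60, adjusted p = 0.0325), Ass1, the argininosuccinate synthase (0.0704, 0.54, adjusted p = 0.0246), and Pgs1, an enzyme of cardiolipin synthesis (0.0727, 0.51, adjusted p = 0.0383). The 3 neighbours of Ccr8 were called, and these neighbours of Ccr6 were not. These are descriptions over 6 samples from the same contrast, with no test of likeness.

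The receptors are not spread evenly over the genome. Of the 9, 5 lie on chromosome 9 (Ccr4, Ccr8, Ccr9, Cxcr5 and Cxcr6), and Ccr9 ends 22145 bases before Cxcr6 starts. Within the span of Ccr9, on the opposite strand, the processed pseudogene Gm10052 had 926 estimated counts in WT replicate 3 and 0 in each of the other 5 samples. WT replicate 3 is the library with 3944803 counts in all. In the gene-level table, 113 entries stood at its lowest value of -3.21 log2 CPM in WT replicate 3, against 5 to 12 in the other samples.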
